A study of Mus musculus with 36 samples.

Results

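The vehicle arm of a time series of mouse bladder transcripts was examined for genes whose level followed a 24 h cycle. It comprises 18 of the 36 libraries of the study, all those labelled vehicle, with 3 at each of 4, 8, 12, 16, 20 and 24 h. All genes were fitted: of 49585 features in the deposited tables, 17717 were above the lowest value in enough vehicle libraries to be tested. The animals were C57BL/6 mice with both adrenal glands removed, in the vehicle group as in the other one, so neither group had its own main source of corticosterone. The CORT group, the other 18 libraries, received corticosterone at the inactive time of day, and the vehicle group received the carrier only. The labels give no age, nor do they define hour zero, and the hours below are those of the labels (the label clock).

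The circadian clock is a feedback loop of transcription that runs in nearly every cell of the body. BMAL1 (encoded by Arntl) and CLOCK bind E-box sequences and switch on the Per and Cry genes, whose proteins return to block that pair. The same pair switches on the REV-ERB repressors Nr1d1 and Nr1d2, which act against ROR proteins on the Arntl promoter. A further layer, with Dbp, Tef and Hlf as activators and Nfil3 as repressor, acts on D-box sequences. In the bladder this clock has been tied to the daily pattern of urine storage, and adrenal glucocorticoids are among the signals that can set the time of peripheral clocks.

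Several properties of the libraries bear on every result below. The mean total count per vehicle library was 10068455, 11551431 and 10428137 for replicates 1, 2 and 3, and values of 2 libraries of the same time correlated over genes at a mean of 0.982, against 0.980 for libraries of different times. Markers of urothelium, smooth muscle, fibroblasts and endothelium were all detected, as a bladder label requires, and none of the defining markers of any listed cell type was at 0 throughout. The 12 h replicate 2 library stood apart: its 5 smooth muscle markers summed to 132030, against 209545 to 371433 in the other vehicle libraries, and its 7 urothelial markers to 90833, against 36444 to 62565. Replicate 1 had the highest smooth muscle sum (298777 to 371433) and nerve sum and the lowest fibroblast sum of the 3 replicates at all 6 times, and the part of this difference in the results was not tested. In the tables of genes that the authors selected, 4 of the vehicle libraries (4, 8, 16 and 20 h replicate 2) carry other names than in the full tables. Those of 4 and 8 h are named vehicle 16 and 20 h there, and those of 16 and 20 h are named CORT 4 and 8 h. The CORT libraries of replicate 2 at the same times are renamed as well, those of 16 and 20 h as vehicle 4 and 8 h. The sources do not say which names are right, so the time and, for some, the treatment of these libraries are in doubt. Under the full-table names the clock gene Nr1d1 had 1510, 1498 and 1382 at 4 h and 525, 467 and 347 at 16 h (replicates 1, 2 and 3). Arntl had 248, 333 and 325 at 4 h and 133, 127 and 165 at 16 h. Under the other names the 1498 of Nr1d1 and the 333 of Arntl would be values of 16 h. Which naming is right was not tested. The names of the full tables were used. Only 1 cycle was sampled, so a rhythm and a single change over the day cannot be told apart.

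A 24 h rhythm was called for 78 features, which is 0.44% of those tested (limma, moderated F over both terms of the 24 h wave, Benjamini-Hochberg adjusted p of at most 0.05). Of these, 14 belonged to the clock gene lists and 64 did not. The amplitude, given throughout as the log2 distance from the mean level to the fitted peak, had a median of 0.76 in the 14 clock genes, 0.56 in the 64 others and 0.12 in all features tested. Peaks fell all round the cycle: 17 features peaked over 0 to 6 h, 23 over 6 to 12 h, 24 over 12 to 18 h and 14 over 18 to 24 h. Of all features tested, 25.1%, 24.8%, 29.3% and 20.8% had their fitted peak in these 4 spans. No clock gene was among the 17 over 0 to 6 h, whereas 7 of the 23 over 6 to 12 h were. Without the 12 h replicate 2 library 75 features were called, 64 of them shared with the 78. Without the 4 libraries that carry 2 names 17 were called, all among the 78. These held 10 clock genes (Arntl, Per2, Per3, Cry1, Nr1d1, Nr1d2, Bhlhe41, Ciart, Dbp and Tef) and, among the other genes followed through all settings, Tspan4, Wee1, 1700019N19Rik, Nrg1 and Angptl7. Of 59 genes so followed, 45 were called with all 18 libraries and 15 without these 4. For Dbp the amplitude without them was 1.72, for Nr1d1 1.68, for Ciart 2.14, for Per2 1.00, for Arntl 1.19 and for Angptl7 1.58. With the other set of names, under which CORT 16 and 20 h replicate 2 count as vehicle, 0 were called (limma, 641 at an unadjusted p under 0.05).

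**Figure D1:**
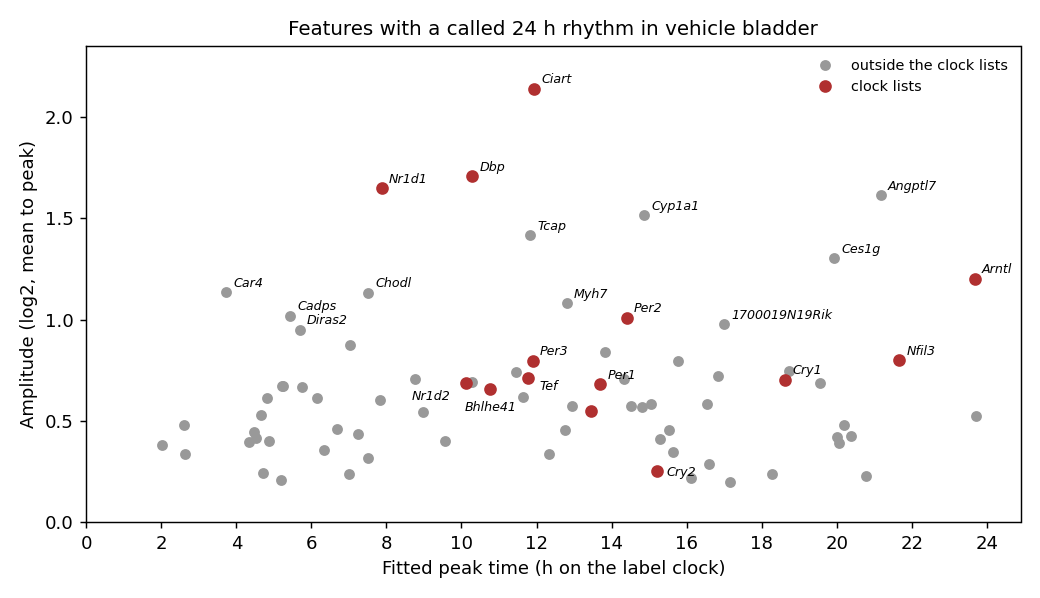
Fitted amplitude (log2, mean to peak, vertical axis) against fitted peak time (h on the label clock, horizontal axis) for the 78 features with a called rhythm in vehicle bladder; red points are the 14 clock genes, grey points the 64 others. Ciart has the largest amplitude at 2.14, 13 features reach 1 or more, and 30 lie under 0.5.

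The clock genes that were called span the negative arm of the loop, its target arm and the activator Arntl. Among 10 clock repressors 9 were called, among 7 activators 2 (Arntl among them), and among the 4 D-box factors 3 (Dbp, Tef and Nfil3). The medians of the amplitude in these lists were 0.69, 0.42 and 0.76. The share called among all features, 0.44%, is the background to these counts. The clock genes are also known to cycle in many mouse organs, and of 10 genes listed for that property 9 were called, the exception being the deubiquitinase Usp2 (amplitude 0.72, peak 15 h, adjusted p = 0.0998 by limma). Of the 9, all but Tsc22d3 and Tspan4 are clock genes already counted above. The list was also chosen with earlier results of these data known, so the 9 are not a separate result.

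By label hour, whose zero is not defined, Nr1d1, the REV-ERB alpha repressor, was the earliest of the called clock genes. Its normalized values were 1510, 1498 and 1382 at 4 h, 2073, 1820 and 1919 at 8 h, 1498, 1170 and 1601 at 12 h, 525, 467 and 347 at 16 h, 174, 207 and 207 at 20 h, and 657, 417 and 410 at 24 h (replicates 1, 2 and 3 in order, as in all lists of 3 below). All 3 libraries at 8 h lay above every library at the other times, and all 3 at 20 h below them. The amplitude was 1.65 with 95% limits of 1.39 and 1.91, a 9.81-fold range between trough and peak, and the fitted peaks of the 3 replicate numbers taken alone were 7.78, 7.87 and 7.98 h. The gene lies on the minus strand of chromosome 11 (mm10, 98767932 to 98775333) and its end overlaps that of Thra on the plus strand (98740638 to 98769006). Thra, which encodes a thyroid hormone receptor and was chosen for mention after its values were seen, was also called, with a peak at 4.33 h and an amplitude of 0.40. Whether reads were counted by strand is not given in the sources used here, so reads from the shared end of these 2 genes may not have been separated.

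Nr1d2, the second REV-ERB gene, followed at 10.1 h (amplitude 0.68, limits 0.51 and 0.86). Dbp, an activator that the CLOCK and BMAL1 pair switches on directly, had 508, 402 and 424 at 4 h, 1077, 874 and 945 at 8 h, 1958, 959 and 1490 at 12 h, 472, 499 and 502 at 16 h, 162, 136 and 142.5 at 20 h, and 206, 146 and 121 at 24 h. The 12 h libraries were the most uneven, with replicate 2 at 959 and replicate 1 at 1958, and yet the peaks by replicate number were 10.1, 10.3 and 10.5 h. Tef, its relative, had a smaller amplitude (0.71, limits 0.54 and 0.89) at a higher level, with 924 to 3389 over the 18 libraries. Bhlhe41, which encodes the repressor DEC2 that binds E-boxes, peaked at 10.8 h (0.66, limits 0.44 and 0.87), with 569 to 922 at 12 h and 272 to 301 at 20 h, groups that do not overlap.

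Ciart, which blocks transcription by CLOCK and BMAL1, had the largest amplitude of all called features although its level was low. It had 7.28, 3.50 and 2.44 at 4 h, 23.9, 19.8 and 17.3 at 8 h, 90.3, 25.3 and 69.9 at 12 h, 32.9, 26.4 and 20.1 at 16 h, 2.94, 5.39 and 0.944 at 20 h, and 5.61, 2.67 and 0.944 at 24 h. The 3 libraries at 8 h, 12 h and 16 h were all above those at 4, 20 and 24 h. The fitted range was 19.4-fold (amplitude 2.14, limits 1.52 and 2.76), and replicate 2 alone gave 1.69, against 2.05 for replicate 1 and 2.71 for replicate 3.

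**Figure D2:**
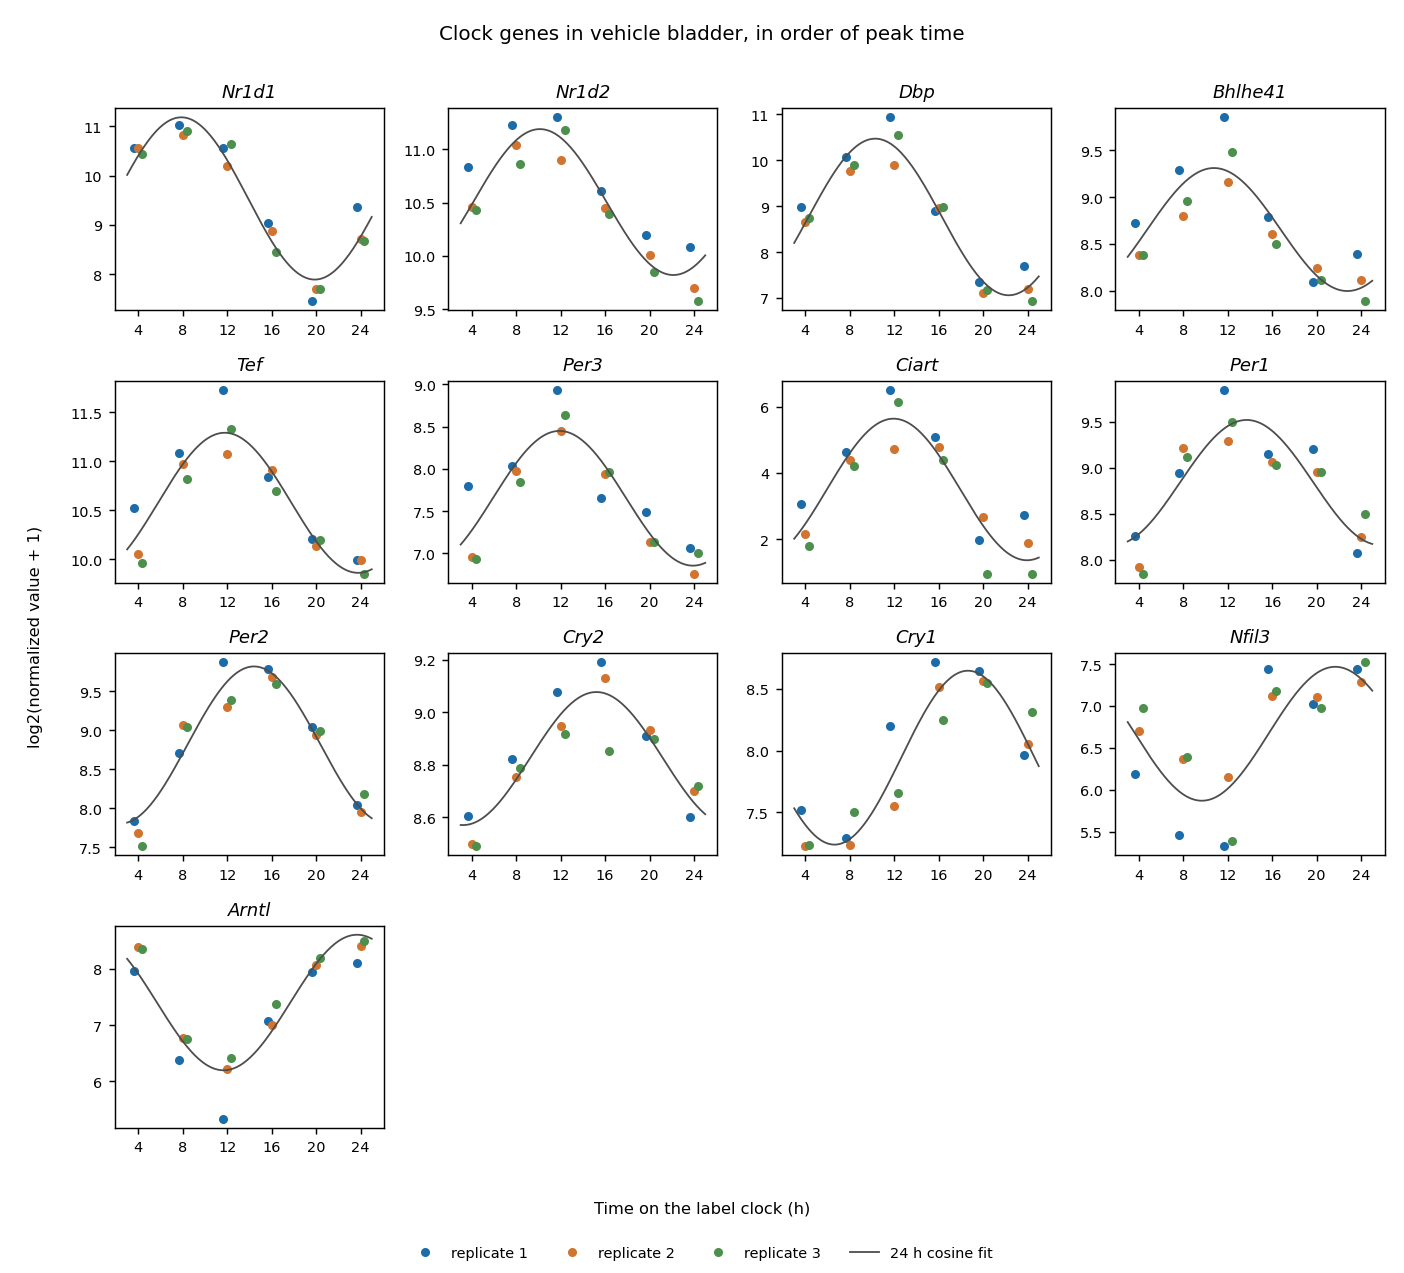
log2(normalized value + 1) of 13 called clock genes (vertical axis) in each of the 18 vehicle libraries against time on the label clock (h, horizontal axis), in order of peak time; point colours are the replicate numbers and the line is the 24 h cosine fit. The low point of Arntl and the high points of Ciart, Tef and Per3 fall at 12 h, with 12 h replicate 1 the farthest out in each.

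The period genes came next. Per3 peaked at 11.9 h (amplitude 0.80, limits 0.56 and 1.04), Per1 at 13.7 h (0.68, limits 0.43 and 0.94) and Per2 at 14.4 h. Per2 had 228, 205 and 182 at 4 h, 417, 536.5 and 527 at 8 h, 938, 628 and 671 at 12 h, 880, 824 and 774 at 16 h, 528, 489 and 507 at 20 h, and 262, 247 and 289 at 24 h. The 16 h libraries differed by little, whereas 12 h replicate 1 exceeded its partners. The delay between Per1 and Per2 was 0.70 ± 0.041 h (mean and SD over the 3 replicate numbers), the most even interval between neighbouring clock genes.

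The cryptochromes, the strongest repressors of the pair, differed from each other. Cry2 had the smallest amplitude of the 14 genes (0.25, limits 0.16 and 0.35, peak 15.2 h). Cry1 had 183, 149 and 149 at 4 h, 156, 150 and 181 at 8 h, 292, 186 and 201 at 12 h, 419, 365 and 304 at 16 h, 398, 377 and 374 at 20 h, and 249, 264 and 316 at 24 h. Its libraries at 16 and 20 h were above those of every other time except that 24 h replicate 3, at 316, exceeded 16 h replicate 3. The peak of Cry1 was later than that of Cry2 by 3.39 ± 0.45 h, the longest of the steps compared. The return from Arntl to Nr1d1 across the end of the label clock was not among them.

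Arntl, which encodes BMAL1, peaked last on the label clock, at 23.7 h. It had 248, 333 and 325 at 4 h, 82.1, 108 and 107 at 8 h, 39.6, 73.3 and 84.6 at 12 h, 133, 127 and 165 at 16 h, 245, 266 and 292 at 20 h, and 273, 338 and 357 at 24 h. The 4, 20 and 24 h libraries were all above those of 8, 12 and 16 h. Nfil3, the D-box repressor, had 39.1 to 83.1 at 8 and 12 h and 125 to 183 at 16, 20 and 24 h (peak 21.7 h, amplitude 0.80, limits 0.41 and 1.19, adjusted p = 0.0425 by limma). This call was fragile: it was lost in 14 of the 18 fits that leave out 1 library (adjusted p = 0.0515 to 0.101 by limma) and held in 9 of 33 other settings in all. The place of Nfil3 in the order below carries the same limit.

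Other clock genes were not called. Clock itself, the partner of BMAL1, had 2333 to 2700 at 4 h and 1753 to 1900 at 12 h, groups that do not overlap, with an amplitude of 0.19 (limits 0.089 and 0.30, adjusted p = 0.0697 by limma). Npas2, which can take the place of CLOCK, had an amplitude of 0.58 and a peak at 23.9 h, close to that of Arntl (adjusted p = 0.0836). Arntl2, a relative of Arntl, had 0.42 and a peak at 12.2 h (adjusted p = 0.0877). Rora was level within error, at 0.016 with an upper limit of 0.19, and Rorb had 0.090 with an upper limit of 0.30. For Bhlhe40 and Hlf the amplitudes were 0.50 and 0.60, with limits of 0.089 and 0.91 and of 0.16 and 1.03 (adjusted p = 0.267 and 0.197 by limma). Of 14 kinases, phosphatases and ubiquitin enzymes that act on clock proteins 0 were called by limma, where 0.44% of all features were. At an unadjusted p under 0.05 lay 4 (28.6%, against 12.7% of all features), and the median amplitude was 0.075.

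The order of the peaks was examined by fitting the 6 libraries of each replicate number alone. The order itself was set by the fit to these same 18 libraries, which favours agreement, so the counts describe it and are no test. Of 12 steps between neighbours among 13 of the called clock genes, 10 had the later gene later in all 3 replicate numbers. The largest of these were Cry2 to Cry1 (3.39 ± 0.45 h), Cry1 to Nfil3 (3.10 ± 0.47 h), Nr1d1 to Nr1d2 (2.24 ± 0.24 h), Nfil3 to Arntl (1.93 ± 1.13 h) and Ciart to Per1 (1.70 ± 0.64 h). Some of the 10 were close to their spread, such as Nr1d2 to Dbp (0.18 ± 0.17 h), Dbp to Bhlhe41 (0.53 ± 0.39 h) and Per2 to Cry2 (0.86 ± 0.67 h). The steps from Tef to Per3 (0.036 ± 0.30 h) and from Per3 to Ciart (0.16 ± 0.74 h) were within the spread between replicate numbers, so these neighbours are not ordered by the data. Replicates 1 and 3 contain none of the libraries with 2 names.

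**Figure D3:**
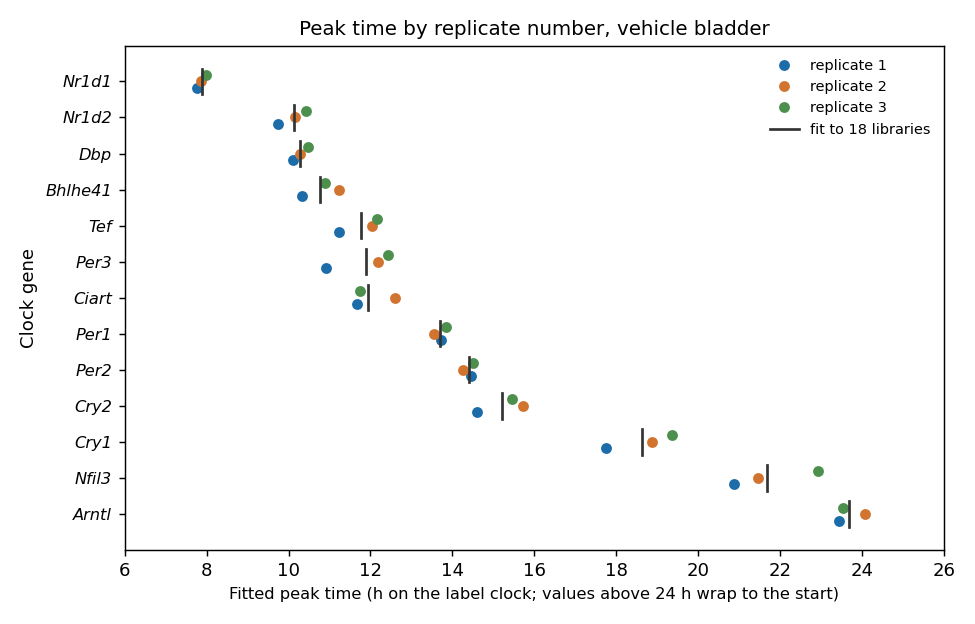
Fitted peak time (h on the label clock, horizontal axis) of 13 called clock genes, one row each, from the 6 libraries of each replicate number (coloured points) and from all 18 libraries (black bar). Nr1d1 points lie within 7.78 to 7.98 h, while those of Nfil3 spread from 20.9 to 22.9 h.

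Over all 78 called features the peaks of the 3 replicate numbers lay within 2 h of the common peak in 77, the exception being Fndc5 (2.58 h; named after its value was seen), and within 1 h in 49. The same 2 h limit held for 2423 of the 17717 features tested (13.7%). As the called features were chosen on these libraries, this describes them and is no test. The SD of the peak over replicate numbers had a median of 0.48 h in the 14 clock genes and 0.88 h in the 64 others.

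Promoters of the clock genes were read from RefSeq (GRCm38.p6, the same assembly as mm10), from 250 bases before to 50 after the annotated start. Of the features tested 12942 matched an entry, among them 65 of the 78 called and 12 of the 14 clock genes. The E-box CACGTG, which reads the same on both strands, was in 5 of the 12 clock promoters (41.7%), in 5 of the 53 others that were called (9.43%) and in 10.7% of all promoters of features tested. It occurred in Bhlhe41, Ciart, Cry1, Per1 and Tef, and in Ciart 3 times, at -116, -58 and -44 from the start. The D-box letters TTATGTAA or TTACGTAA, on either strand, were in 0.927% of all promoters and occurred in Per3 2 times. The letters TAGGTCA, the core bound by ROR and REV-ERB proteins, were in 2.395% of all promoters on either strand and in 2 of the 12 clock promoters, those of Arntl and Nfil3, the 2 clock genes with the latest peaks. No promoter of Dbp, Nr1d1, Nr1d2 or Cry2 in the table held any of the motifs searched, which says only that these letters are not in that window. The full glucocorticoid receptor element, searched on both strands, was in 0.448% of all promoters and in 1 of the 65 called, that of Mt1.

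The 4 promoters below show the 3 kinds of motif, in capitals, in genes from the middle and the end of the order. They are Ciart on the minus strand at chr3:95882179-95882478, Per3 on the minus strand at chr4:151044616-151044915, Nfil3 on the minus strand at chr13:52980990-52981289 and Arntl, its second annotated start, on the plus strand at chr7:113207261-113207560, each written 5′ to 3′ along its gene. In Nfil3 the capitals TGACCTA are TAGGTCA read from the other strand.
Ciart: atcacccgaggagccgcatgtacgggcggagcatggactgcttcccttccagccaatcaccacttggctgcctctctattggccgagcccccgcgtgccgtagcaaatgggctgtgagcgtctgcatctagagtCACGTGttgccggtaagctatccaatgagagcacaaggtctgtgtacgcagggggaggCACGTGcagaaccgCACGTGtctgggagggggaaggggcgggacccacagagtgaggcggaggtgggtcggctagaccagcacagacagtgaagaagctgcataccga
Per3: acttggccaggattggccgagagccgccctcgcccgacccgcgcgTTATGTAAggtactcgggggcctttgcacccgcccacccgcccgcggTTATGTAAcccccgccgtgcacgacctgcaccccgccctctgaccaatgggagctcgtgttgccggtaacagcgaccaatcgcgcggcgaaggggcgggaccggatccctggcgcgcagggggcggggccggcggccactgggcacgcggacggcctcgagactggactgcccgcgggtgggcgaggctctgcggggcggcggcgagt
Nfil3: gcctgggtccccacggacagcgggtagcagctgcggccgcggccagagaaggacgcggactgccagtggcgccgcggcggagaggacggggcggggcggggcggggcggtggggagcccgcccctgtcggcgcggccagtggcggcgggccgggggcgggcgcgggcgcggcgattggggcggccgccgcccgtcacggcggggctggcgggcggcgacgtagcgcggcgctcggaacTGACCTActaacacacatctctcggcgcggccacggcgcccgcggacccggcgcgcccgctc
Arntl: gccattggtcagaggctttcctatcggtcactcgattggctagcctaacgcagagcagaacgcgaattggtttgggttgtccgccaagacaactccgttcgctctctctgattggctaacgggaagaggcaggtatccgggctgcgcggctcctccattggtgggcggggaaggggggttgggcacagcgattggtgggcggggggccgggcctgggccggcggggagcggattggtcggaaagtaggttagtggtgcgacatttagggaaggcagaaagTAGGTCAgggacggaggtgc

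Outside the clock lists, the called features that peaked over 0 to 6 h included genes of secretion, signalling and matrix. Cadps, which primes secretory vesicles, had 76.8, 147 and 129 at 4 h and 28.3, 15.9 and 34.0 at 16 h (amplitude 1.02, limits 0.57 and 1.47). Diras2, a small GTPase of the Ras family, had 288, 308 and 414 at 4 h and 84.9, 77.2 and 132 at 16 h (0.95, limits 0.59 and 1.31). Their 4 h and 16 h libraries do not overlap. Col5a3, a chain of the fibrillar type V collagen, had 506, 412 and 422 at 4 h, 454, 426 and 506 at 8 h, and 257, 200 and 147 at 16 h (amplitude 0.67, peak 5.75 h, adjusted p = 0.0158 by limma). Pi15, a secreted protein of the CRISP family, had 41.8, 38.8 and 41.5 at 4 h and 8.89, 15.4 and 28.0 at 16 h (0.67), and the noncoding transcript 2900041M22Rik had 9.56, 8.72 and 10.1 at 4 h and 2.72, 3.39 and 3.00 at 16 h (0.67). Of these genes, Pi15 was lost in 13 of the 18 fits that leave out 1 library (adjusted p = 0.0521 to 0.103 by limma), and Cadps in 2, those without 4 h replicate 2 or 3 (adjusted p = 0.0621 and 0.0587).

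Car4, a membrane-bound carbonic anhydrase, had the largest amplitude of these (1.14, peak 3.72 h), at values of a few units. Its libraries had 3.17, 3.50 and 5.39 at 4 h, 1.83, 2.11 and 0 at 8 h, 0.5, 0 and 0 at 12 h, 0 in all 3 at 16 h, 0, 0.222 and 0 at 20 h, and 5.11, 0.667 and 0.944 at 24 h. The 2 highest, 4 h replicate 3 and 24 h replicate 1, were also the 2 libraries with the highest sums of the adipocyte markers Adipoq, Plin1 and Cidec, 2006 and 1381, against 1.28 to 569 in the other 16. The part of adipose tissue in this result was not tested. Car4 was not called when any 1 of the 3 libraries of 4 h was left out (adjusted p = 0.0556 to 0.0725 by limma).

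Among those that peaked over 6 to 12 h were genes of cell division, of metal binding and of the surface epithelium. Ccnb1, the cyclin that drives entry into mitosis, had 22.8, 28.9 and 22.5 at 4 h, 39.1, 42.6 and 70.7 at 8 h, 14.3, 25.9 and 22.1 at 12 h, 9.89, 15.9 and 15.2 at 16 h, 12.2, 10.9 and 9.44 at 20 h, and 24.2, 16.3 and 17.8 at 24 h. All 3 libraries at 8 h were above every other vehicle library. Of 14 mitosis genes this was the only one called, where 0.44% of all features were. The peaks of all 14 lay over 0 to 12 h, 12 of them over 6 to 12 h, where 24.8% of all features had theirs. Their median amplitude was 0.49 and 10 (71.4%) had an unadjusted p under 0.05, against 12.7% of all features. Cenpf, a kinetochore protein, came closest to a call (0.66, peak at 7 h, adjusted p = 0.0775 by limma), and Mki67, a marker of dividing cells, had 0.56 (adjusted p = 0.171). The DNA replication list was placed elsewhere: 0 of 12 were called by limma (4 at an unadjusted p under 0.05), and 8 of the 12 peaks lay over 12 to 18 h, where 29.3% of all peaks did. In bulk tissue fewer cells of a type and less RNA per cell cannot be told apart.

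The metallothioneins Mt1 and Mt2, neighbours on chromosome 8 that bind zinc and copper, moved together. Mt2 had 256, 223 and 314 at 8 h, 204, 322 and 337 at 12 h, and 102, 102 and 140 at 20 h (amplitude 0.71, limits 0.43 and 0.98), and Mt1 had 493, 394 and 407 at 8 h, 433, 620 and 455 at 12 h, and 238, 234 and 230 at 20 h (0.54, limits 0.30 and 0.79). Both are similar in sequence, so reads could be split between them. Mt1 was lost in 8 of the 18 fits that leave out 1 library (adjusted p = 0.0518 to 0.0728 by limma). They are 2 of the 4 glucocorticoid-responsive genes called among 22, where 0.44% of all features were called, with Per1 and Tsc22d3, which encodes the leucine zipper protein GILZ (564 to 841 at 24 h, 1062 to 1543 at 16 h, amplitude 0.46). At an unadjusted p under 0.05 lay 9 of the 22 (40.9%, against 12.7% of all features). The median amplitude of the 22 was 0.19, and 0 of them were called by limma when any 1 replicate number was left out.

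Krt4, a keratin of stratified epithelium, had 655, 1204 and 863 at 4 h, 1264, 1033 and 1782 at 8 h, 1268, 1219 and 1615 at 12 h, 1133, 1647 and 1346 at 16 h, 791, 536 and 702 at 20 h, and 350, 650 and 611 at 24 h. Every library at 8, 12 and 16 h exceeded all those at 20 and 24 h (amplitude 0.74, peak 11.5 h, adjusted p = 0.0181 by limma). None of the 16 urothelium genes was called by limma, where 0.44% of all features were. At an unadjusted p under 0.05 lay 1 (6.25%, against 12.7% of all features), and the median amplitude was 0.12. Of the 16 fitted peaks 12 lay over 12 to 18 h, where 29.3% of all features had theirs. The urothelial marker sums averaged 58290 at 12 h, where replicate 2 alone had 90833, and 52975 at 24 h. In that library Krt4 was at 1219, the lowest of the 3 at 12 h. The part of the epithelial share in the Krt4 result was not tested. Clca3a2, of a chloride channel regulator family whose members are near-copies and therefore uncertain here, had 604, 518 and 504 at 8 h and 275, 160 and 156 at 24 h (amplitude 0.69). Chodl, a membrane lectin, had 257 to 512 over the 4, 8 and 12 h libraries and 88.1 to 126 over those at 16 and 20 h.

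2 sarcomere genes were called at low values. Tcap, which anchors titin at the Z disc, had 13.3, 2.11 and 3.17 at 4 h, 18, 7.67 and 8.44 at 8 h, 50.2, 27.4 and 44.2 at 12 h, 7.44, 5.78 and 13.8 at 16 h, 6.50, 7.44 and 2.44 at 20 h, and 3.89, 3.39 and 1.56 at 24 h. All 3 libraries at 12 h exceeded every other one. Myh7, the slow myosin heavy chain, had 17.4, 18.4 and 19.1 at 12 h, 19.6, 20.3 and 13.7 at 16 h, and 1.17 to 8.61 at the other times. Most of the striated muscle list did not follow them: 2 of 18 were called (0.44% of all features were) and 0 when any 1 replicate number was left out. At an unadjusted p under 0.05 lay 5 of the 18, Tcap and Myh7 included (27.8%, against 12.7% of all features). Of these 5, 3 peaked over 6 to 12 h, 1 over 12 to 18 h and 1 over 18 to 24 h. The median amplitude of the list was 0.25. The sum of the 8 defining markers at 12 h was 4557, 841 and 1570, which spans the lowest and the highest vehicle library. Tcap was lost in 12 of the 18 fits that leave out 1 library (adjusted p = 0.0546 to 0.0867 by limma).

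**Figure D4:**
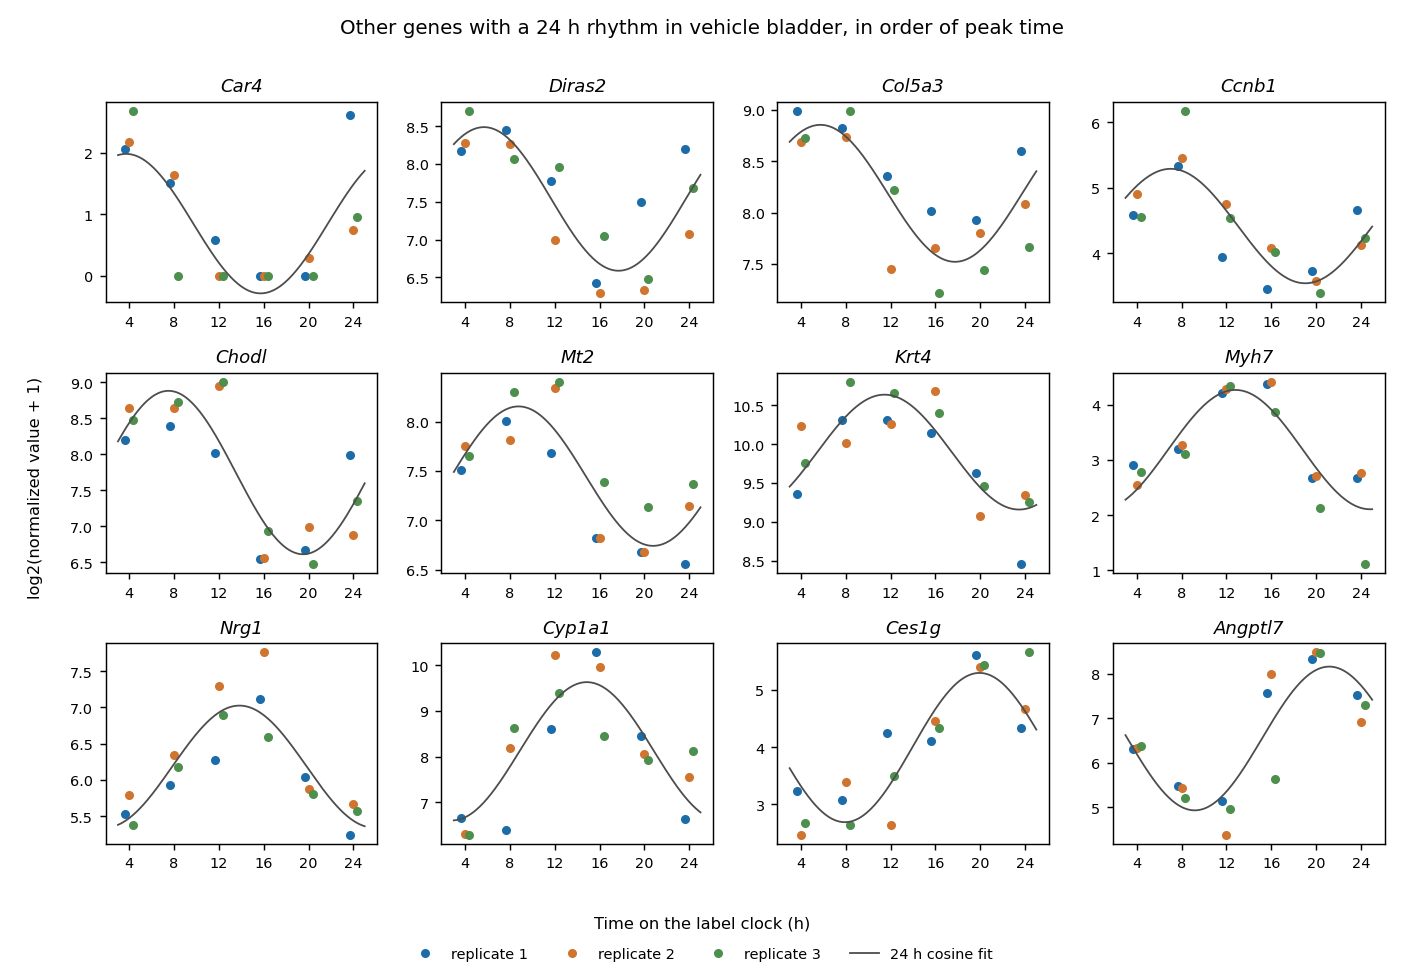
log2(normalized value + 1) of 12 called genes outside the clock lists (vertical axis) in each of the 18 vehicle libraries against time on the label clock (h, horizontal axis), in order of peak time; point colours are the replicate numbers and the line is the 24 h cosine fit. Car4 is at 0 in all 3 libraries of 16 h, and Angptl7 has 16 h replicate 3, at 48.6, far below its 2 partners at 190 and 253.

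The features that peaked over 12 to 18 h were led by Cyp1a1, a cytochrome P450 that the aryl hydrocarbon receptor induces. It had 99.9, 77.7 and 77.1 at 4 h, 82.3, 289 and 392 at 8 h, 385, 1194 and 670 at 12 h, 1244, 998 and 351 at 16 h, 351, 264 and 243 at 20 h, and 98.1, 186 and 279 at 24 h. The 4 h libraries were all below those of 12, 16 and 20 h, and 16 h replicate 3, at 351, was no higher than 20 h replicate 1. Replicates of 1 time differed by up to several-fold, and the replicate numbers gave amplitudes of 1.88, 1.83 and 0.99 with peaks at 16.1, 14.3 and 13.7 h. The call was lost without 16 h replicate 2 or 4 h replicate 3 (adjusted p = 0.0518 and 0.0524 by limma). Of 8 genes of that receptor's pathway tested, 1 was called (0.44% of all features were), 5 had an unadjusted p under 0.05 (12.7% of all features) and 7 peaked over 12 to 18 h, where 29.3% of all features did. Cyp1b1 (0.63, adjusted p = 0.0632 by limma), Aldh3a1 (0.51, 0.0877) and Tiparp (0.61, 0.116), all targets of the receptor, peaked between 13.1 and 14.3 h, while the receptor gene Ahr had an amplitude of 0.098 with an upper limit of 0.27.

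Nrg1, an epidermal growth factor family ligand of the ERBB receptors, had 45.2, 54.6 and 40.4 at 4 h, 59.9, 79.8 and 71.7 at 8 h, 76.2, 155 and 118 at 12 h, 138, 215.3 and 95.3 at 16 h, 64.8, 57.8 and 54.8 at 20 h, and 36.9, 49.8 and 46.5 at 24 h. The 12 and 16 h libraries were all above those of 4, 20 and 24 h (amplitude 0.84, limits 0.53 and 1.16, peak 13.8 h). 1700019N19Rik, a protein-coding gene named only by its clone, had 53.7, 35.1 and 47.3 at 16 h and 9.56, 6.28 and 8.28 at 4 h (0.98), and its peaks by replicate number were 17.1, 16.5 and 17.2 h. Padi2, which converts arginine to citrulline in proteins, had 61.3, 99.2 and 83.9 at 16 h and 27.8, 30.2 and 23.7 at 4 h (0.72), and was lost in 7 of the 18 fits that leave out 1 library (adjusted p = 0.0537 to 0.0965 by limma). Wee1, the kinase that holds back mitosis and a direct clock target in mouse liver, had 159, 164 and 148 at 16 h and 83.9, 101 and 89.6 at 4 h (0.41, limits 0.28 and 0.53, adjusted p = 0.00101 by limma). Tspan4, a tetraspanin, had 607, 711 and 464 at 16 h and 293, 282 and 234 at 4 h (0.59, adjusted p = 0.00101).

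Of 12 Wnt ligands, which signal through Frizzled receptors, 2 were called, against 0.44% of all features, and 0 when any 1 replicate number was left out. Wnt6 had 18.7, 48.3 and 54.7 at 16 h, 36.9, 23.0 and 35.6 at 20 h, and 11.8, 12.7 and 10.1 at 8 h (amplitude 0.75, peak 18.7 h). Wnt16 was close to the floor, with 0 to 3.11 over the 18 libraries (0.71, peak 14.3 h). Wnt6 was lost in 8 of the 18 fits that leave out 1 library (adjusted p = 0.0525 to 0.0728 by limma) and Wnt16 in 1, that without 4 h replicate 3 (0.0532), and the median amplitude of the 12 was 0.23.

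Angptl7, a secreted angiopoietin-like protein, had the largest amplitude of those that peaked over 18 to 24 h. It had 78.2, 80.2 and 82.4 at 4 h, 43.6, 42.4 and 35.9 at 8 h, 34.5, 19.9 and 30.0 at 12 h, 190, 253 and 48.6 at 16 h, 320, 355 and 350 at 20 h, and 183, 120 and 156 at 24 h. Apart from 16 h replicate 3, the libraries of each time differed from each other by far less than the times did, and those of 20 h were above all others (limits of the amplitude 1.07 and 2.16, a 9.36-fold range). Ces1g, a carboxylesterase with near-copies beside it on chromosome 8 and therefore uncertain, had 47.6, 41.3 and 42.4 at 20 h and 8.44, 4.56 and 5.39 at 4 h. Lonrf3, a ring finger protein listed with clock-gated genes, had 115, 149 and 127 at 20 h and 44.3, 58.9 and 48.8 at 8 h (0.69), Rasl11a, a small GTPase, had 152, 191 and 182 at 24 h and 60.2, 94.6 and 92.2 at 12 h (0.53), and Olfm2, an olfactomedin, had 97.3, 72.3 and 98.6 at 20 h and 41.9, 51.9 and 39.2 at 8 h (0.48). Of these, Olfm2 was lost in 13 of the 18 fits that leave out 1 library (adjusted p = 0.0552 to 0.101 by limma).

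Some genes of bladder function could be bounded from above. None of 18 genes of sensing, ATP release and gap junctions and none of 14 detrusor receptors and channels was called by limma. Of all features 0.44% were called, so lists of this size would mostly give 0. At an unadjusted p under 0.05 lay 5 of the 18 (27.8%) and 0 of the 14, against 12.7% of all features. The median amplitudes were 0.26 and 0.18. The tightest limits were those of the purinergic receptor P2rx4 (amplitude 0.053, upper limit 0.17; 273 to 380 over the 18 libraries) and of the calcium release channel Itpr1 (0.018, upper limit 0.11; 5197 to 6244). The widest were those of the channel Trpa1, at 0 to 4.94 (0.73, upper limit 1.30, adjusted p = 0.225), and of the muscarinic receptor Chrm2 (0.63, upper limit 1.35, adjusted p = 0.495 by limma). Chrm2 had 2382, 1227 and 291 at 16 h, so the spread within 1 time was as wide as that between times. The 13 smooth muscle contractile genes gave 0 calls by limma and 0 at an unadjusted p under 0.05, with a median amplitude of 0.15. Of their fitted peaks 9 lay over 0 to 6 h and 4 over 18 to 24 h, against 25.1% and 20.8% of all features. The amplitude of a typical tested feature had an SE of 0.081, so rhythms much smaller than the called ones were not detectable with 18 libraries.

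Cholesterol synthesis genes showed peaks close together without any call. Of 17 genes tested 0 were called by limma, where 0.44% of all features were. At an unadjusted p under 0.05 there were 13, against 12.7% of all features. In 16 the peak fell over 12 to 18 h, against 29.3% of all features, and the peaks of the list ran from 15.5 to 18.8 h. The median amplitude of the list was 0.26. Collagens and matrix genes gave 0 calls of 21 by limma and 8 at an unadjusted p under 0.05. The share of all features at that level was 12.7%. Over 0 to 6 h lay 10 of their peaks and over 6 to 12 h 9, against 25.1% and 24.8% of all features. An example is the microfibril gene Fbn1 (0.53, peak 5.14 h, adjusted p = 0.143). Of 11 heat shock genes 10 peaked over 12 to 18 h, where 29.3% of all features did, but 0 were called and 0 had an unadjusted p under 0.05 (limma). The genes of a list share the same 18 libraries, so a common peak time over a list is not a count of independent observations. The uncalled list members given here as examples were chosen after their values were seen.

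Whether 6 time means held more than a single cosine was asked with a test of the remaining 3 terms. It called 1 feature of 17717, 0.00564% (1604 at an unadjusted p under 0.05). This was Pax5, a transcription factor of B cells, with 0 in all 3 libraries at 4 h, 2.39, 1.5 and 1.78 at 8 h, 1.00, 2.11 and 2.33 at 12 h, 2.11, 1.11 and 1.39 at 16 h, 0 in all 3 at 20 h, and 3.17, 2.11 and 1.28 at 24 h (adjusted p = 0.0297 by limma). The values rest on a few reads each, and the call was lost in 8 of the 18 fits that leave out 1 library.

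The vehicle rhythm was then compared with that of the CORT group by a test of the difference itself over all 36 libraries. It called 19 of 17867 features, 0.106%, and 17 of these were also among the 78 with a vehicle rhythm (21.8% of the 78). Both tests used the same vehicle libraries, so this overlap is in part built in. In the CORT libraries alone 0 of 17921 features had a called rhythm (limma; 1056 at an unadjusted p under 0.05). Amplitudes of the 78 were lower in CORT for 76 (median 0.29 in CORT, against 0.59 in vehicle), but the 78 were chosen for a large value in vehicle, so this comparison has a direction built in. Without the libraries named in 2 ways, which are in both treatments, 10 differences were called, all among the 19. With the other names, which move some libraries between CORT and vehicle, 0 were called.

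Per2 had 420, 913 and 920 at 4 h, 456.3, 545 and 633 at 8 h, 335, 312 and 362 at 12 h, 694, 377 and 636 at 16 h, 404, 373 and 427 at 20 h, and 875, 384 and 437 at 24 h in CORT libraries. On the same scale of 36 libraries, vehicle libraries had 234, 210 and 186 at 4 h, 428, 551 and 540 at 8 h, 961, 643 and 688 at 12 h, 902, 844 and 793 at 16 h, 542, 501 and 520 at 20 h, and 268, 253 and 296 at 24 h. At 4 h every CORT library was above every vehicle library, and at 12 h every one was below. The amplitude was 0.31 in CORT and 1.01 in vehicle, and the fitted peak was at 3.20 h in CORT and 14.4 h in vehicle. The test, which takes amplitude and peak time together, gave an adjusted p = 0.000555 (limma).

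Not all of the 19 were clock genes. Chp2, which binds calcium and sodium-proton exchangers, kept an amplitude of 0.37 in CORT against 0.48 in vehicle, but its peak was at 15.7 h in CORT and at 2.60 h in vehicle (adjusted p = 0.000555 by limma). Its CORT libraries had 94.3, 64.9 and 69.7 at 4 h and 180, 102 and 142 at 12 h, and its vehicle libraries had 152, 136 and 157 at 4 h and 103, 120 and 121 at 12 h. Mthfd1l, a mitochondrial enzyme of folate metabolism, had an amplitude of 0.28 with a peak at 5.65 h in CORT and of 0.57 with a peak at 14.8 h in vehicle (adjusted p = 0.00223). It had 172, 261 and 253 at 4 h in CORT libraries and 123, 121 and 111 at 4 h in vehicle libraries, which do not overlap. Cx3cr1, a fractalkine receptor of macrophages, was the one gene with the larger amplitude in CORT, 0.73 against 0.27 in vehicle. Its peak was at 17.2 h in CORT and 2.58 h in vehicle, where the lower 95% limit of the amplitude was 0. The test of amplitude and peak time together gave an adjusted p = 0.0432 (limma). Cx3cr1 is given although it ranks below the 10 smallest p-values.

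**Figure D5:**
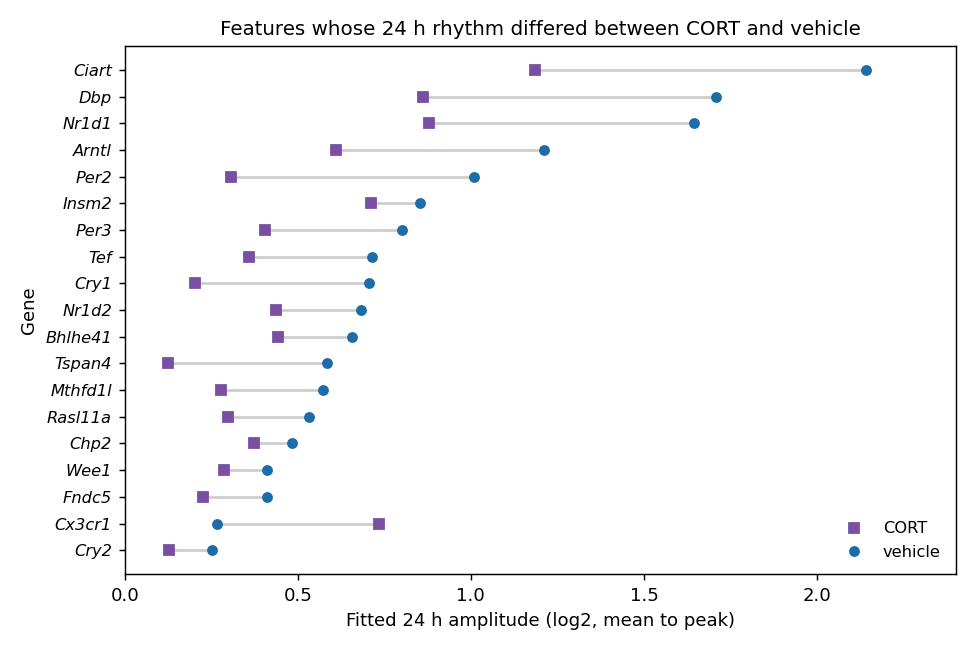
Fitted 24 h amplitude (log2, mean to peak, horizontal axis) in CORT (purple squares) and vehicle (blue circles) for the 19 features whose rhythm differed between treatments, one row each. The CORT value is the lower one in 18 rows, and Cx3cr1 is the exception.

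At the edge of the call stood BC016579, Pxdn and Stk39 just inside (adjusted p = 0.0472, 0.0478 and 0.0496 by limma; amplitudes 0.80, 0.40 and 0.20) and Adgrf4, Tmprss11f and Rrp12 just outside (0.0581, 0.0586 and 0.0586; amplitudes 0.50, 0.42 and 0.43). The 3 just inside were lost in 13, 15 and 17 of the 18 fits that leave out 1 library. The amplitudes on both sides overlap. Of the features in the authors' selected list for vehicle, 5 were among the 78, and 3 of the 5 were clock genes. The 5 are 2.21% of their list, where 0.44% of all features tested were called, and 6.41% of the called features. The authors' selected values give some vehicle libraries other names, and with those names 0 rhythms were called here (limma). The overlap is therefore no test of the authors' selection. The highest and the lowest time did not overlap in any of the 78 called features, a property the call itself favours. Its share over all features tested was not computed, so this count has no background to be read against.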

How the data were processed

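Whole bladder RNA was sequenced in directional, rRNA-depleted libraries, per the labels' protocols, which also describe RNA isolation from blood with globin removal although every sample is named bladder. Per the submitters' processing notes the genome build was mm10, while the aligner, the counter and any use of strand were not given in the sources used here. What the authors deposited is a linear signal for each gene: in each table the 12 libraries share 1 set of sorted values, all multiples of 1 part in 12, so they are read counts that the authors quantile normalized table by table. The authors' selected-gene tables hold log2 values and served only to compare library names and gene lists. A common scale was rebuilt as the mean of the sorted sets over the 18 vehicle libraries (for the treatment comparison over all 36), and values were analysed as log2(value + 1), which understates changes of low genes. A feature had to exceed the table's minimum in at least 0.5 of libraries to be tested.

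limma 3.58.1 (R 4.3.3) tested a cosine and a sine of 24 h (moderated F), the departure from it (12 h cosine and sine, 8 h alternation) and treatment by rhythm, with Benjamini-Hochberg adjustment over all features at 0.05. The fit was tested on simulated data with known amplitudes. Limits of amplitude are 95% limits from the joint confidence region of both terms. Times of replicate 3 come from titles, and those libraries were registered later than the rest. The labels do not tell whether replicates came from different animals; a p-value therefore reflects only how much these samples vary, which may be technical. Replicate numbers did not meet the criterion for pairing the samples. Gene coordinates are from GENCODE vM21 and promoters from RefSeq.

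The genes named are all members of the 3 clock lists except 1 that is not reported here, called members of the other lists, up to 6 called features of largest amplitude per 6 h of peak time, up to 10 called in each other test, the bladder sensing and detrusor genes with the lowest and highest upper limit, and 3 on each side of the threshold. Members, lists and rules were chosen with earlier results of these data known. Promoter letters, tests by replicate number and lists are descriptions. Alternatives changed the pseudocount (0.1, 10), the filter, the variance model, the libraries used and their names.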

Additional observations from a re-analysis of the deposited data

Results flagged for a closer look

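The test of the difference between treatments picked out the following genes, the 10 with the smallest p-values of the 19 called by limma over 36 libraries. Values are the fitted 24 h amplitude in CORT minus that in vehicle (log2, mean to peak), with the peak in CORT and then in vehicle. Among activators of the D-box layer, Dbp differed by -0.85 (peak at 3.07 h in CORT and 10.3 h in vehicle) and Tef by -0.35 (3.53 h in CORT and 11.8 h in vehicle). Among repressors, Nr1d1 differed by -0.77 (2.25 h in CORT and 7.88 h in vehicle), Nr1d2 by -0.25 (2.95 h in CORT and 10.1 h in vehicle), Per2 by -0.70 (3.20 h in CORT and 14.4 h in vehicle), Ciart by -0.96 (1.83 h in CORT and 11.9 h in vehicle) and Bhlhe41 by -0.21 (2.62 h in CORT and 10.8 h in vehicle). Arntl differed by -0.60 (15.7 h in CORT and 23.7 h in vehicle). Outside the clock lists, Chp2 differed by -0.11 (15.7 h in CORT and 2.60 h in vehicle) and Mthfd1l by -0.30 (5.65 h in CORT and 14.8 h in vehicle). The test covers amplitude and peak time together, and for Chp2 the difference in amplitude was smaller than its SE of 0.12. For Bhlhe41 and Nr1d2 the SE of that difference was 0.14 and 0.13. In the CORT libraries alone 0 of 17921 features had a called rhythm by limma, so the CORT peak times are uncertain.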

How the results depend on the processing

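The 78 rhythms became 131 with a pseudocount of 10, 150 with a minimum mean value of 10, 166 with an intensity trend and 156 with library weights, of which 76, 74, 76 and 78 were among the 78. They became 29 with a linear trend added (28 shared, 13 clock genes), 17 without the 4 libraries named in 2 ways and 0 with the other names. Leaving out 1 replicate number gave 4 to 20 (4 without replicate 2, 9 without replicate 3 and 20 without replicate 1, with 3, 7 and 10 clock genes) and leaving out 1 library 50 to 148, the extremes being 148 without 12 h replicate 1, 50 without 16 h replicate 2 and 51 without 4 h replicate 3. The call of Pax5, 1 departure, became 3 with a pseudocount of 0.1, 2 without a filter, 1569 with library weights, and 0 with a pseudocount of 10, with the minimum mean, with the replicate block, with the other names and without the libraries of 2 names; it ranged from 0 to 81 without a replicate number and from 0 to 96 without a library. The 19 differences between treatments became 10 without the libraries of 2 names, 0 with the other names, 1 to 11 without a replicate number and 13 to 22 without a vehicle library.

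By list, counts without 1 replicate number ranged from 2 to 7 for clock repressors (9 with all), 0 to 1 for activators (2), 1 to 2 for D-box factors (3), 3 to 6 for genes cycling in many organs (9), 0 to 1 for clock-gated genes (2) and mitosis (1), and 0 for the glucocorticoid-responsive (4), striated muscle (2), Wnt (2), aryl hydrocarbon receptor (1) and sodium transport (1) lists. The replicate block gave 98 rhythms, 69 of them among the 78, and 18 differences. Deviations of same-numbered libraries correlated at a mean of 0.035 over 45 pairs, 14 of them over 0.1, against -0.018 over 90 other pairs, 8 of them over 0.1. Not every same-numbered pair was over 0.1, so the numbers were not taken to pair the samples, although replicate 1 differed from the others in marker sums at all 6 times. Peak times turned to the opposite side for uncalled genes only, Rora, Itpr1 and Rorb. For Rora this held at amplitudes of 0.043 without 12 h replicate 1, 0.0045 without 4 h replicate 2 and 0.021 without the libraries of 2 names. Over all 33 settings its amplitude was 0.0024 to 0.096. For Itpr1 it held at 0.016 with the other names and 0.0090 with a linear trend, and for Rorb at 0.20 with a linear trend. For 59 named genes, 1551 rhythm values over all alternatives stayed on their side of the threshold, 358 lost a call, 27 gained one and 6 turned. The causes were not tested. Depth per library is known only as a mean over times, and it limits the genes with the lowest values most.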
